A study of Mus musculus with 8 samples.

Results

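Chromatin at the interferon regulatory factor (IRF) genes Irf1, Irf2, Irf3, Irf4, Irf5, Irf7 and Irf9 was compared between early and late tumours in type 1 conventional dendritic cells (cDC1s). The cells were sorted from tumours of B16-OVA, a mouse melanoma line made to express ovalbumin, grown in wild-type mice. ATAC-seq, in which a transposase cuts and tags open DNA, was run on 4 libraries from day 7 after inoculation and 4 from day 21. The labels set the days apart by tumour age, and the sources used here name neither the age of the mice nor how many animals went into a library, so p values measure the spread between libraries. A region of the deposited table was assigned to an IRF gene when its centre lay in the gene body, or within 50 kb of it with an end of that gene as the nearest protein-coding gene end. This gave 93 of 128057 regions: 47 for Irf2, 21 for Irf1, 11 for Irf4, 9 for Irf5, 2 each for Irf7 and Irf9, and 1 for Irf3.

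IRFs bind DNA elements built around GAAA. Irf3, Irf5 and Irf7 are activated by phosphorylation downstream of nucleic acid sensors and Toll-like receptors and switch on type I interferon and cytokine genes. Interferon receptors then signal through STAT proteins, Irf9 acts at the promoters of interferon-stimulated genes, and Irf1, itself induced by interferon-gamma, activates many of them, while Irf2 binds overlapping sites and can oppose Irf1. Irf4 binds mostly with partners such as PU.1 and BATF and acts in activated lymphocytes and dendritic cells. Irf8, the factor that defines the cDC1 lineage, is not described here beyond its use as a marker.

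The 250 bases before the listed start of Irf1, Irf2 and Irf4 show how far these promoters differ in the motif patterns searched. They are given from RefSeq (GRCm38.p6, the assembly called mm10), 5' to 3' on the plus strand, with motif matches in capitals. Irf1 is shown because its promoter region fell, Irf2 because its window held most of the matches, and Irf4 because its ends were among the least accessible. They lie at chr11:53769764-53770013, chr8:46739495-46739744 and chr13:30748983-30749232.
Irf1: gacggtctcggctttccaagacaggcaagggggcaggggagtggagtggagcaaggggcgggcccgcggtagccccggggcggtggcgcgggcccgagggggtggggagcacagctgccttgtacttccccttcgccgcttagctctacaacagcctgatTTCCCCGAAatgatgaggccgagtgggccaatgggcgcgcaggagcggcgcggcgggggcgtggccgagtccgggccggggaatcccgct
Irf2: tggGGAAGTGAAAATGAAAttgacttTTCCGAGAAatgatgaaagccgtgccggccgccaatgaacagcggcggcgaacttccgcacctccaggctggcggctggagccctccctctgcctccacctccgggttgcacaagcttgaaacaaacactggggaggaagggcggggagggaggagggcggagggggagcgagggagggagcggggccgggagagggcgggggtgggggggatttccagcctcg
Irf4: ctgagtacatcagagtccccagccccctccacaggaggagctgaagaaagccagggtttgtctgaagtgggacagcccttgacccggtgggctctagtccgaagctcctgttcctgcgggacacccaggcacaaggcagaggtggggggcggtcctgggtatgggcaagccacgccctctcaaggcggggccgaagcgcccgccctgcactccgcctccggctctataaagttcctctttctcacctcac
The search covered both strands of 300-base windows (250 bases before to 50 after a start) for an IRF repeat (GAAA, 2 free bases, GAAA), an ETS-IRF composite (GGAA, 2 free bases, GAAA), a STAT-type GAS element (TTCNNNGAA), an NF-kB element (GGGA, 2 free bases, TTCC) and an AP-1 element (TGANTCA). The Irf1 window held a GAS match, TTCCCCGAA, at positions -90 to -82 from the start. In the Irf2 window an ETS-IRF composite, GGAAGTGAAA (-247 to -238), overlapped an IRF repeat, GAAAATGAAA (-241 to -232), and a GAS match, TTCCGAGAA, lay at -224 to -216. No letters of these 5 motifs were found in the Irf4 window or in the other windows of the 7 genes, 9 windows in all. Among 21263 protein-coding promoter windows, 3.35% held the IRF repeat, 2.53% the composite, 7.69% the GAS element, 1.44% the NF-kB element and 6.99% the AP-1 element. A match describes letters and was not tested as a binding site. Other forms of these elements, including other NF-kB letters, were not searched, so a window without a match may still hold such an element.

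Between day 7 and day 21 the accessible chromatin of Irf1 fell, that of Irf5 and Irf7 rose outside their ends, and Irf2 lost 9 single regions and gained 4. Levels are given as CPM, counts scaled to each library's total. Of 92 regions tested (1 Irf4 region was too low), 9 were higher and 18 lower at day 21, at an adjusted p under 0.05 in edgeR's quasi-likelihood test over the whole table, hereafter called. Over all regions, 9.49% of 121955 tested regions were higher and 9.85% lower. The share of IRF regions called was 29.35%, against 19.3% of all regions. Of the 18 lower regions 9 belonged to Irf1 and 9 to Irf2, and of the 9 higher regions 4 belonged to Irf2, 2 to Irf5 and 1 each to Irf4, Irf7 and Irf9. In 29 of the 92 the ranges of the 4 day 7 and the 4 day 21 libraries were disjoint, called no overlap below, as in 19.8% of all tested regions. Irf1 alone held the 5 regions that were lower by at least 2-fold, a size that 3.76% of all regions reached.

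**Figure D1:**
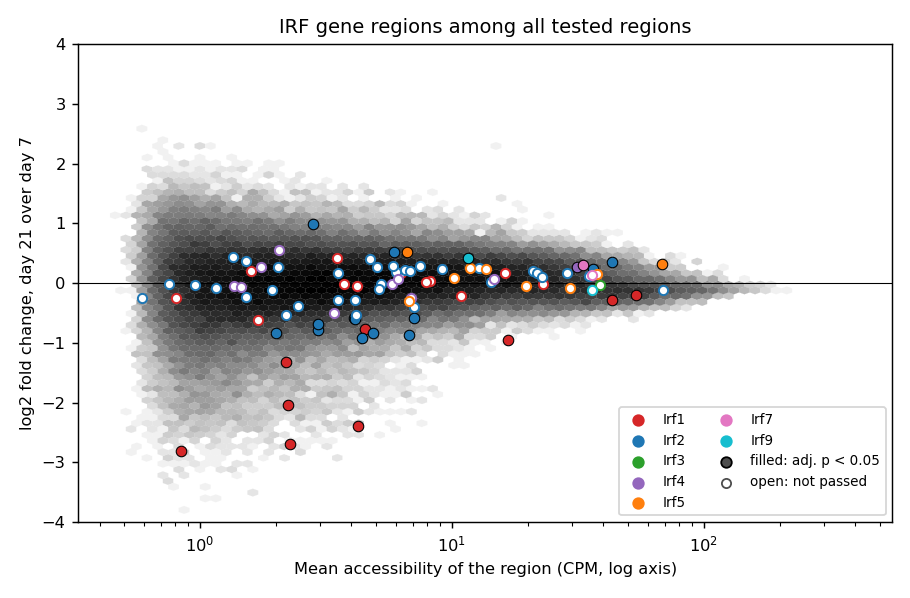
Each coloured point is a region of an IRF gene, placed by its mean accessibility over both days (CPM, log axis) and its log2 fold change, with all tested regions as a grey density. Filled points passed the test, and the lowest 4 of them, at -2.05 to -2.81, are regions downstream of Irf1.

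The counts of regions at a gene's ends (within 1000 bp of either annotated end) were summed, and so were those of its distal regions, which touch no protein-coding gene end. Over all genes 30.4% of 12950 gene-end sums were called (6.9% higher, 23.5% lower, median log2 fold change -0.086), with no overlap in 26.1%. Of 14837 distal sums 30.5% were called (19.2% higher, 11.4% lower, median 0.042) with no overlap in 27.5%. Of the 7 IRF genes 1, Irf1, was called at its ends (lower, without overlap between the days), and in their distal regions Irf5 and Irf7 were higher and Irf1 was lower. Irf3 and Irf9 had no distal region, and Irf2 and Irf4 passed in neither sum.

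**Figure D2:**
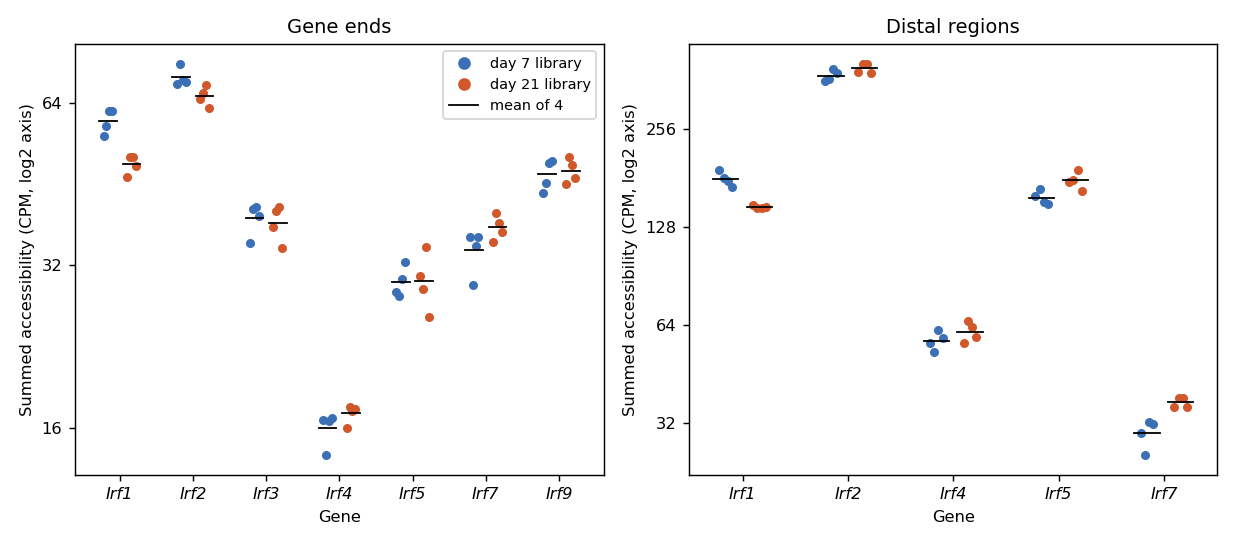
Summed accessibility (CPM, log2 axis) at the ends and in the distal regions of each IRF gene, with 1 point per library and a line at the mean of 4. The day 21 libraries of Irf1 lie below all day 7 libraries in both panels, and those of Irf7 lie above them in the distal panel only.

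Irf1, the interferon-gamma-induced activator, lies at chr11:53770014-53778374 on the plus strand. Its gene-end sum was 55.6, 58.1, 61.8 and 61.8 CPM in day 7 replicates 1 to 4 and 46.7, 50.8, 50.8 and 48.9 CPM in day 21 replicates 1 to 4. Every day 21 library was below every day 7 library, and the log2 fold change was -0.27 ± 0.06 (SE, adjusted p = 0.000906). Most of that sum lay in the promoter region (chr11:53769650-53770775), which spans the whole Irf1 sequence shown above. That region went from 47.7 ± 2.65 to 39.1 ± 1.86 CPM (SD, n = 4 per day), a log2 fold change of -0.29 ± 0.07 (adjusted p = 0.00248), and its call held in all 14 other settings tried. Its upstream neighbour (chr11:53768715-53769272) measured 11.7 ± 3.12 CPM at day 7 and 10.2 ± 0.578 at day 21 and did not pass (adjusted p = 0.313). At -6.5 kb, the region with the most counts among the other regions of the gene (chr11:53762815-53764221) held 57.4 ± 3.95 CPM at day 7 and 50.2 ± 1.31 at day 21. This difference passed (-0.19 ± 0.07, adjusted p = 0.0336) without overlap between libraries, but not in 6 of 14 other settings (adjusted p 0.0233 to 0.167 over all 14). The 6 were thinning, offsets that follow the mean count, and leaving out day 7 replicate 1 or 3 or day 21 replicate 1 or 4.

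The larger falls lay downstream of Irf1. Its distal sum went from 191, 181, 178 and 170 CPM at day 7 to 150, 147, 147 and 148 CPM at day 21, a log2 fold change of -0.29 ± 0.05 (adjusted p = 2.67e-06). With a distal limit of 20 kb in place of 50 kb it was -0.10 with an adjusted p of 0.122, so the call rests on the outer regions. Of 19 distal regions 8 were lower and none was higher in this fit. The lower region at 10.93 kb (chr11:53780811-53781081) went from 3.16 ± 0.261 to 1.25 ± 0.395 CPM without overlap (-1.32 ± 0.28, adjusted p = 0.000368). This call held in all 14 other settings. That region was lower by at least 2-fold and lies apart from the stretch described next.

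From 39.1 to 51.0 kb past the Irf1 start, 5 neighbouring regions were all lower at day 21, by log2 values of -2.05, -2.81, -2.70, -2.40 and -0.94. The region with the smallest p, at chr11:53818855-53819345, had 6.64, 8.92, 6.83 and 6.21 CPM at day 7 and 1.55, 0.722, 1.24 and 1.74 CPM at day 21 (-2.40 ± 0.23, adjusted p = 1.21e-12). All day 21 libraries were below all day 7 libraries. The outermost and most accessible of the 5 (chr11:53820425-53821544) went from 22.04 ± 3.99 to 11.4 ± 2.30 CPM (adjusted p = 9.37e-09). The strongest fold change, -2.81 ± 0.53, stood in a region of few reads: 20, 13, 16 and 24 counts at day 7 and 6, 2, 3 and 4 at day 21. All 5 calls held in each of the 14 other settings.

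These regions lie in the body of Gm12216, a long non-coding RNA gene annotated at chr11:53785489-53859256, and the lower stretch did not stop where the assignment to Irf1 ends. The first region past the boundary, at chr11:53821645-53821880 and nearest to Slc22a5 (a carnitine transporter gene), went from 2.92 to 0.601 CPM. Of the 20 regions in the Gm12216 body 11 were lower, none was higher, 8 did not pass and 1 was too low to test. The last called one lay 75.85 kb from the Irf1 start. This stretch was singled out after its values were seen and is given as a description. Exons and introns are not in the gene table used here, so positions are given as gene body or flank only.

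**Figure D3:**
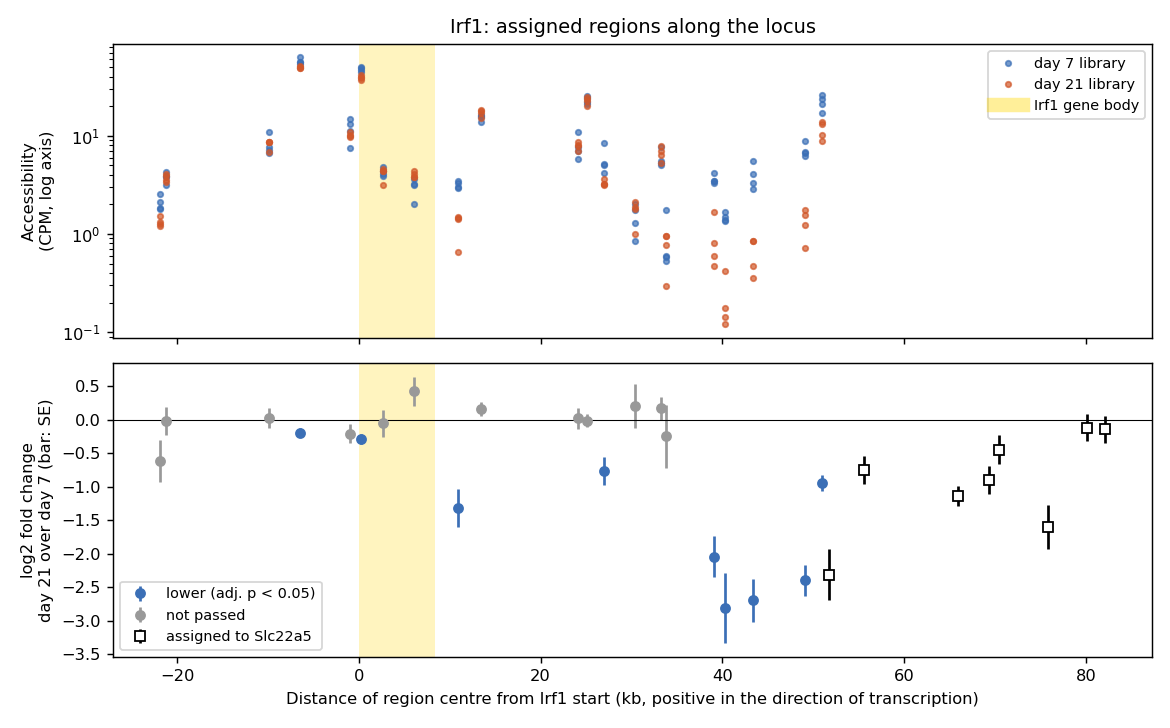
Accessibility of each library (upper panel, CPM, log axis) and log2 fold change with its SE (lower panel) for the regions of Irf1 by distance from its start. In the lower panel the regions from 39.1 to 49.09 kb have the lowest fold changes of Irf1, -2.05 to -2.81, and the open squares show further regions of the same long non-coding RNA gene that are assigned to Slc22a5.

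Lists of markers of other cell states differed in direction, and their counts can be read against the shares of all genes given above. Mature dendritic cell genes were lower at the ends of 9 of 9 tested genes, among them Ccr7, the lymph node homing receptor (-1.36 ± 0.11, adjusted p = 1.03e-16), and in the distal regions of 6 of 8. The summed gene-end level of that list ran from 401 to 456 CPM at day 7 and from 298 to 324 CPM at day 21, and no gene of it was at 0. Of T and NK cell genes 5 of 10 were lower and 1 higher at their ends, with sums of 87.2 to 99.0 CPM at day 7 and 74.0 to 88.6 at day 21, and in distal regions 6 of 13 were lower and 1 higher. Of macrophage and monocyte genes 4 of 16 were higher at their ends and none was lower, and in distal regions 3 of 16 were higher and 3 lower. Of the other lists, at gene ends, 1 of 7 cDC2, 1 of 4 pDC, 2 of 5 melanoma and 1 of 6 stromal or endothelial genes were lower. At gene ends 1 pDC, 1 melanoma and 1 of 5 B cell genes were higher, and none of 3 neutrophil genes passed. In distal regions 3 of 5 melanoma, 1 of 6 cDC2, 1 of 10 stromal or endothelial and 1 of 5 B cell genes were lower. There 2 of 9 pDC, 2 B cell and 1 of 5 neutrophil genes were higher. The part of these cells in the Irf1 result, and in the pathway counts given last, was not tested. In sorted bulk cells, fewer cells with an open region and less opening per cell cannot be told apart.

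For the cDC1 label 13 marker genes were described, of which 11 had a tested gene end. No other sorted cells were measured for comparison, so these levels cannot settle the identity of the cells. Clec9a, the dead-cell receptor of cDC1s, held 17.9 CPM at day 7 and 21.0 at day 21 at its ends, and Cadm1 62.0 and 64.2. No region was assigned to Xcr1, the chemokine receptor that defines the lineage. In distal regions 7 of 12 cDC1 genes were higher and 1, Zbtb46, was lower. At gene ends 3 of 11 were higher, namely Wdfy4 (0.47), Gcsam (0.33) and Cd24a (0.29), and 1, Irf8, was lower (-0.51 ± 0.07, adjusted p = 1.1e-07).

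Irf2, the factor that can oppose Irf1, lies at chr8:46739745-46847458 and has the most regions. Its promoter region (chr8:46739299-46740383), which covers the sequence with the IRF and ETS-IRF letters, had 69.5, 75.7, 70.7 and 70.03 CPM at day 7 and 65.2, 66.7, 69.1 and 62.5 CPM at day 21. The days did not overlap there, yet the gene-end sum did not pass (-0.12 ± 0.06, adjusted p = 0.125). Its distal sum was 375 ± 14.8 CPM at day 7 and 395 ± 13.9 at day 21 and did not pass (0.08 ± 0.04, adjusted p = 0.171). Within the 46 distal regions 4 were higher and 9 lower.

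The Irf2 gain with the smallest p was in the gene body at 79.19 kb (chr8:46818025-46819851), its distal region with the most counts. It measured 37.9, 35.8, 40.5 and 38.2 CPM at day 7 and 47.7, 46.4, 50.8 and 49.5 CPM at day 21, with no overlap (0.35 ± 0.07, adjusted p = 1.90e-04). The loss with the smallest p, also in the gene body, was at 55.8 kb (chr8:46795345-46795738). It went from 7.48, 6.69, 10.96 and 9.69 CPM to 4.78, 3.91, 5.78 and 4.77 CPM (-0.87 ± 0.17, adjusted p = 8.93e-05), again without overlap. By fold change, a low region at 60.95 kb rose most, from 1.895 ± 0.441 to 3.74 ± 0.484 CPM (0.99 ± 0.25, adjusted p = 0.00237), a call lost when libraries were thinned (adjusted p = 0.0788). The region at 109.82 kb, past the far end of the gene, fell most, from 5.81 ± 0.466 to 3.03 ± 0.512 CPM (-0.92 ± 0.20, adjusted p = 0.000361). The 4 gains lay between 60.95 and 103.16 kb from the start. Of the 9 losses 5 lay before that stretch and 4 past the far end of the gene. By level, of 8 Irf2 regions with a mean of 20 CPM or more 2 were higher and none lower. Of 13 with 5 to 10 CPM 1 was higher and 2 were lower. Of 16 with 2 to 5 CPM 1 was higher and 7 were lower. Over the whole table the same bins had 18.78% higher and 18.94% lower, 12.87% and 9.236%, and 6.921% and 9.336%. These Irf2 counts are small, and the gain at 103.16 kb, in the top bin, did not pass in 7 of 14 other settings. Of the 13 Irf2 calls 5 held in every other setting.

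**Figure D4:**
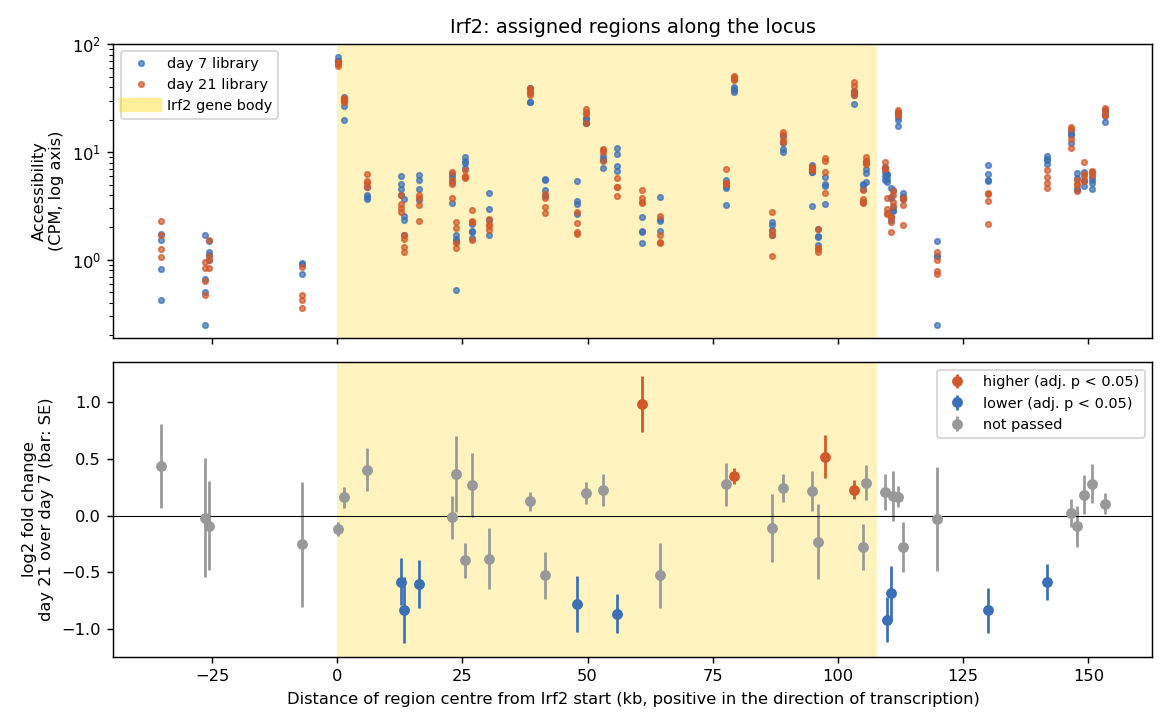
Accessibility of each library (upper panel, CPM, log axis) and log2 fold change with its SE (lower panel) for the 47 regions of Irf2 by distance from its start. The 4 higher regions lie in the gene body, and the 9 lower regions lie in the body and past its far end.

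Irf7, which amplifies type I interferon, rose inside its gene. A pair of neighbouring regions lies on this short gene (chr7:141263183-141266499, minus strand). The promoter region (chr7:141265687-141266637) had 36.1, 29.4, 34.8 and 36.2 CPM at day 7 and 35.4, 40.0, 38.4 and 36.9 CPM at day 21. The days overlapped and it did not pass (adjusted p = 0.231). The region in the body 1461 bp from the start (chr7:141264689-141265387) had 29.7, 25.4, 32.1 and 31.6 CPM at day 7 and 35.7, 38.1, 38.2 and 35.7 CPM at day 21. All day 21 libraries were above all day 7 libraries, and the log2 fold change was 0.31 ± 0.08 (adjusted p = 0.00349), a call that held in every other setting. This region is the whole distal sum of Irf7 (0.31 ± 0.08 in that fit, adjusted p = 0.00226). With gene-end windows of 2000 bp both regions count as gene end, and the gene-end sum then passed (0.22, adjusted p = 0.00518). It also passed with offsets that follow the mean count (0.24, adjusted p = 0.0119).

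Irf5, which acts downstream of Myd88 on inflammatory cytokine genes, lies at chr6:29526130-29541869. Its most accessible region lies upstream at -1.81 kb (chr6:29524002-29524642), in the body of the long non-coding RNA gene Gm26627. It had 59.9, 64.6, 59.6 and 59.2 CPM at day 7 and 78.1, 77.7, 81.2 and 67.9 CPM at day 21. The days did not overlap, and the gain (0.33 ± 0.06, adjusted p = 1.03e-04) held in every other setting. Both regions at the Irf5 start stayed within the spread of the libraries. They measured 9.90 ± 0.638 and 19.9 ± 1.49 CPM at day 7 and 10.6 ± 1.54 and 19.4 ± 2.81 at day 21, and the gene-end sum differed by -0.01 ± 0.08 (adjusted p = 0.965). The distal sum rose from 158 ± 7.38 to 178 ± 10.5 CPM (0.18 ± 0.05, adjusted p = 0.00399), with overlap between the days. That call was lost with 2000 bp windows (0.07, adjusted p = 0.329), which move the upstream region into the gene-end sum, and with offsets that follow the mean count (0.10, adjusted p = 0.0783). With 2000 bp windows the Irf5 gene-end sum was higher (0.24, adjusted p = 0.000615). A further region, at the end of the neighbouring gene Tnpo3, was higher (0.51 ± 0.17, adjusted p = 0.0279), with overlapping days. It did not pass in 7 of 14 other settings (adjusted p 0.0051 to 0.114 over all 14), which were DESeq2 and leaving out any library except day 7 replicate 4 or day 21 replicate 1.

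Irf3, the constitutively present partner of Irf7, had a single region (chr7:44997109-44998941) that also covers an end of Bcl2l12, so its counts cannot be assigned to Irf3 alone. It measured 35.2, 40.8, 41.0 and 39.5 CPM at day 7 and 37.7, 40.3, 41.1 and 34.5 CPM at day 21. The days overlapped and the gene-end sum did not pass (-0.03 ± 0.07, adjusted p = 0.801).

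Irf9, which acts in the response to type I interferon, lies at chr14:55603985-55610030 and had regions only at its start. The larger, which also covers an end of Rnf31, held 37.3 ± 2.16 CPM at day 7 and 34.6 ± 3.06 at day 21 and did not pass (adjusted p = 0.360). The smaller, in the gene body (chr14:55604864-55605212), had 9.14, 8.50, 11.4 and 10.6 CPM at day 7 and 13.3, 12.4, 13.3 and 14.1 CPM at day 21. It was higher without overlap (0.42 ± 0.13, adjusted p = 0.0130), but not when libraries were thinned to the smallest total (adjusted p = 0.0745) or when day 21 replicate 4 was left out (adjusted p = 0.0604). The sum of both regions was 47.2 ± 3.15 and 47.9 ± 2.53 CPM and did not pass (0.02 ± 0.07, adjusted p = 0.865).

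Irf4, which works with PU.1 and BATF, lies at chr13:30749233-30766981. Its start region (chr13:30749013-30749511), over most of the sequence shown above, had 14.9, 12.3, 15.4 and 14.9 CPM at day 7 and 14.0, 15.5, 15.3 and 15.6 CPM at day 21. A small region at its far end held 1.58 ± 0.394 and 1.92 ± 0.0953 CPM. The gene-end sum did not pass (0.09 ± 0.10, adjusted p = 0.548), and the distal sum measured 57.2 ± 3.70 and 61.0 ± 4.22 CPM and did not pass (0.09 ± 0.06, adjusted p = 0.319). At -10.6 kb the most accessible Irf4 region (chr13:30738329-30738930) had 28.2, 24.9, 29.8 and 30.5 CPM at day 7 and 31.8, 37.5, 35.3 and 32.4 CPM at day 21. It was higher without overlap (0.27 ± 0.08, adjusted p = 0.0158), but not without day 21 replicate 2 (adjusted p = 0.106) or day 7 replicate 2 (adjusted p = 0.0755).

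Whether distal regions moved apart from the ends of the same gene was tested on the log2 ratio of distal to gene-end CPM in each library, for the 5 genes with both. The ratio of Irf2 rose from 2.39 ± 0.0899 to 2.58 ± 0.0267 and that of Irf7 from -0.20 ± 0.0694 to -0.03 ± 0.0371 (SD, n = 4 per day), each with an exact two-sided permutation p of 0.0286. This is the smallest p that the 70 relabelings can give, and after adjustment over 5 genes it was 0.0714, so neither passed. The differences of Irf5 (0.17), Irf1 (-0.02) and Irf4 (-0.0014) had exact p values of 0.143, 0.886 and 1.0.

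Per kilobase of region, the gene-end level at day 7 was highest at Irf2 (66.0 ± 2.64 CPM per kb), followed by Irf5 (48.2 ± 3.19), Irf9 (41.3 ± 2.76), Irf7 (35.9 ± 3.37), Irf1 (35.3 ± 1.82), Irf3 (21.3 ± 1.46) and Irf4 (19.7 ± 1.43). Irf7 and Irf1 overlapped over the day 7 libraries, as did Irf3 and Irf4. At day 21 Irf1 (29.3 ± 1.15) lay below Irf7 (39.7 ± 2.08) without overlap. Irf3 (21.0 ± 1.62) and Irf4 (21.0 ± 0.877) were last and overlapped. The place of Irf4 rests on its weak far-end region, which its gene-end sum includes. The Irf4 start region alone held 28.9 ± 2.81 CPM per kb at day 7 and 30.3 ± 1.5 at day 21. On both days this was above Irf3 without overlap. In the day 21 order Irf5 overlapped with Irf9, and Irf9 with Irf7.

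The genes whose gene-end level over the 8 libraries was most like that of an IRF gene were found by Pearson's r of log2 CPM (pseudocount 1), among all genes that share no region with it. For Irf1 these were Tmem41b (r = 0.997) and Cul3 (r = 0.992), with log2 fold changes of -0.27 and -0.34. For Irf2 they were Asf1b (0.993) and Emid1 (0.990), for Irf7 Mog (0.981) and Eml2 (0.971), and for Irf4 Coq10a (0.982) and Cdc42ep3 (0.975). For Irf3 they were Dhx37 (0.972) and 4933440N22Rik (0.971), for Irf9 Ppib (0.970) and Nupl1 (0.956), and for Irf5 Cdk2ap2 (0.926) and Casc3 (0.903). These values are the highest among all genes over 8 libraries that share their depth, and they describe likeness only.

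Around the IRFs, the genes that feed and follow them were described from 5 lists of 86 genes. At gene ends 80 were tested, of which 4 were higher and 22 lower (median -0.13, against -0.086 for all genes). With loess offsets that follow the mean count the split was 10 higher and 11 lower, and the median of all genes was -0.0051. The shares of all genes called with these offsets are not given here. That split can therefore not be read against the shares of the main fit. In distal regions 77 were tested, of which 21 were higher and 13 lower (median 0.01, against 0.042). Counts below can be read against the shares of all genes given above.

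**Figure D5:**
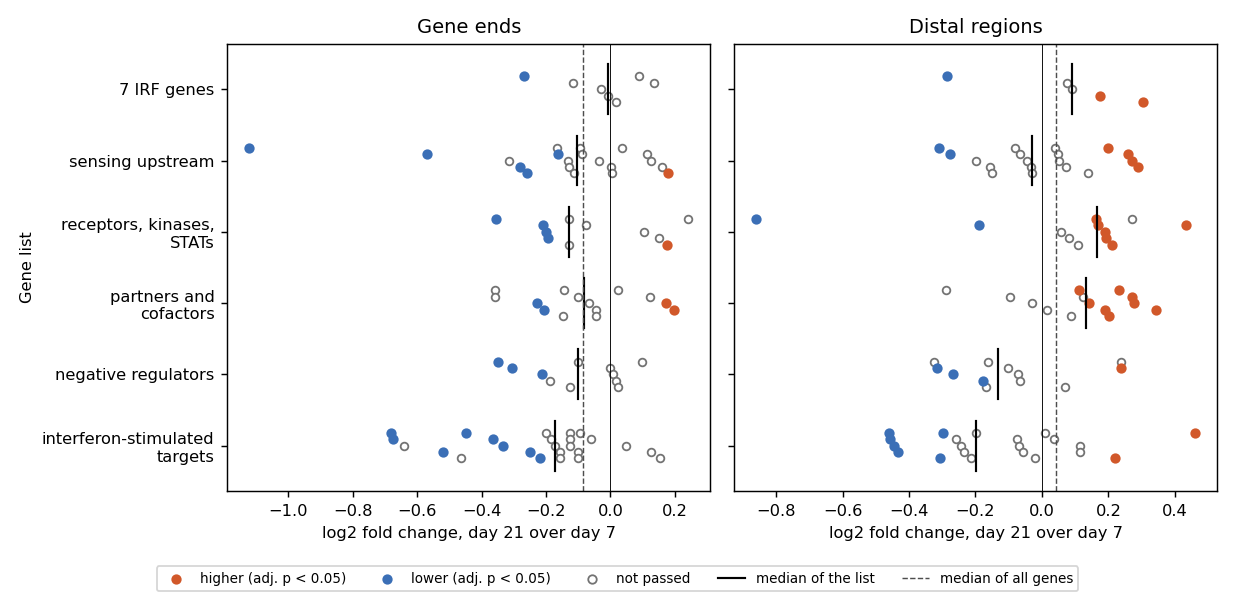
Log2 fold change of each gene of the IRF pathway at its ends (left) and in its distal regions (right), by list, with list medians as black lines and the median of all genes dashed. Interferon-stimulated targets have a median of -0.17 at their ends, and partners and cofactors have 8 higher and no lower distal sums.

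Upstream sensing genes had 5 lower and 1 higher of 20 gene ends. The lower ones with the smallest p were Ikbke, a kinase of Irf3 and Irf7 (5.23 to 2.44 CPM, -1.12 ± 0.24, adjusted p = 0.000324), and Traf3, an adaptor of that kinase step (-0.28 ± 0.07, adjusted p = 0.0027). In distal regions 4 of 19 were higher and 2 lower. Traf3 was lower there too (-0.31 ± 0.06, adjusted p = 2.72e-05), and Tlr3, the double-stranded RNA receptor of cDC1s, was higher (0.26 ± 0.06, adjusted p = 0.000335).

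Interferon receptors with their kinases and STATs had 4 lower and 1 higher of 11 gene ends, and 6 higher and 2 lower of 12 distal sums. Stat3 was lower at its ends (-0.21 ± 0.06, adjusted p = 0.00356). Ifngr1, a chain of the interferon-gamma receptor, was higher in distal regions (129 to 175 CPM, 0.43 ± 0.05, adjusted p = 1.87e-09).

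DNA-binding partners and cofactors had 2 higher and 2 lower of 14 gene ends, and 8 higher and none lower of 14 distal sums. The lower ends were those of Tcf3, a helix-loop-helix factor (-0.23 ± 0.07, adjusted p = 0.00745), and Ep300, a histone acetyltransferase (-0.21 ± 0.06, adjusted p = 0.0122). In distal regions the smallest p values were those of the repressor Bcl6 (0.28 ± 0.04, adjusted p = 1.73e-06) and of Irf2bp2, which binds Irf2 (0.27 ± 0.04, adjusted p = 2.74e-06).

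Negative regulators had 3 lower and no higher of 11 gene ends, led by the phosphatase gene Ptpn2 (-0.35 ± 0.06, adjusted p = 7.62e-06) and by Socs1, the feedback inhibitor of interferon receptors (-0.31 ± 0.06, adjusted p = 2.9e-05). In distal regions 3 of 12 were lower, among them Ptpn6 (-0.31 ± 0.07, adjusted p = 0.000123) and Trim27 (-0.27 ± 0.06, adjusted p = 0.000252), and 1 was higher.

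Interferon-stimulated targets had 8 lower and no higher of 25 gene ends (median -0.17). Gbp5, a guanylate-binding protein gene induced by interferon-gamma, went from 12.8 ± 1.92 to 7.95 ± 1.28 CPM (-0.68 ± 0.13, adjusted p = 8.07e-05), and Oas3, an antiviral oligoadenylate synthetase gene, from 11.7 ± 0.63 to 7.32 ± 0.985 CPM (-0.68 ± 0.14, adjusted p = 8.95e-05). In distal regions 6 of 21 were lower and 2 higher. Rsad2, the antiviral viperin gene, was lower (-0.46 ± 0.09, adjusted p = 3.34e-05) and Eif2ak2, the gene of the RNA-activated kinase PKR, was higher (0.46 ± 0.09, adjusted p = 8.72e-05). The summed gene-end level of this list ran from 540 to 573 CPM at day 7 and from 489 to 504 CPM at day 21.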

How the data were processed

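ATAC-seq counts of 8 libraries were used, 4 per day. The authors deposited raw counts per region in 1 table of 128057 regions on mm10, with every column belonging to a library. The tools in the submitters' processing notes are MACS2 2.1.0.20150603, cutadapt 1.9, bedtools, SAMtools and Picard 1.65. The aligner, the transposase shift, the merging of peaks, and whether coordinates count from 0 or 1 are not given in the sources used here. A shift would move counts by a few bases, and its effect was not tested. Day 7 libraries held 9440223 to 16063736 counts in total and day 21 libraries 14021151 to 27737040.

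Genes came from RefSeq (GRCm38.p6), and all 7 IRF genes matched in the gene and promoter tables. A region that met the rule for several genes counted for each. Regions (121955 after filterByExpr), gene-end sums and distal sums were each fitted over the whole table in edgeR 4.0.16 (R 4.3.3) with TMM factors (0.978 to 1.01) and day as the only term, and tested with glmQLFTest. P values were adjusted by Benjamini-Hochberg with a threshold of 0.05. CPM uses TMM-scaled totals, values are mean ± SD over 4 libraries, and fold changes are day 21 over day 7. On simulated counts the region fit recovered 6% of log2 changes of 0.5 and 81% of changes of 1, and the gene-end fit 43% and 97%. Only few features were changed there, unlike in the data, so these shares do not carry over to the fits reported here. Ratios were compared with exact permutation tests (SciPy 1.17.1).

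By the rule for names, the text gives each IRF gene's end regions, its other regions with the smallest p in each direction and with the most counts, 2 genes per list and setting, and 2 genes per likeness. A gene that this rule chose is not reported here, while counts include it. Other features named were chosen after their values were seen. The members, lists and tests were chosen with earlier results of these data known. The main fits did not pair libraries by replicate number. Alternatives were DESeq2 1.42.0, other scalings, no filter, thinning, a block, other windows and limits, leaving out each library, and, chosen after seeing the data, the start end only.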

Additional observations from a re-analysis of the deposited data

Results flagged for a closer look

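In 5 of 96 groups of 4 libraries checked, 1 library stood apart from the others, where chance alone gives about 1 in 20. The lowest day 7 library at the Irf4 ends had 14.2 CPM, with the next at 16.4. The lowest day 21 library had 0.662 CPM at the Irf1 region 10.93 kb past the start, with the next at 1.41. The highest day 21 library had 3.66 CPM at the Irf1 region at 26.95 kb, with the next at 3.25. The highest day 7 library had 64.6 CPM at the Irf5 region at -1.81 kb, with the next at 59.9, still below the day 21 libraries. The highest day 21 library had 12.8 CPM at the Irf5 start region at 0.01 kb, with the next at 10.2.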

How the results depend on the processing

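The Irf1 gene-end call and the Irf7 distal call held in all alternatives run for them, and 14 of the 27 region calls held in all theirs. With offsets that follow the mean count the Irf1 gene-end change was smaller, at -0.17 (adjusted p = 0.0252) against -0.27 in the main fit. The 20 kb limit left 0 lower distal sums and 11 lower regions. With 2000 bp windows 2 gene-end sums and 0 distal sums were higher, and with offsets that follow the mean count 1 and 1. Those offsets gave 10 higher and 11 lower pathway gene ends, and moved the median of all gene-end sums from -0.086 to -0.0051. With the replicate block 9 regions were higher and 17 lower. Deviations of same-numbered libraries from their day mean correlated at 0.00436 to 0.00958, and not every library correlated best with its own number. Counting noise in regions of few reads weighs on these correlations, so they cannot decide whether the numbers pair libraries.

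Leaving out single libraries gave 5 to 9 higher and 13 to 18 lower regions (5 without day 7 replicate 2), and over all regions 8665 to 11165 higher and 9819 to 11955 lower. Gene-end sums stayed at 0 higher and 1 lower, and distal sums at 2 higher and 1 lower. The difference of log2 ratios ran from -0.0653 to 0.0417 for Irf1, 0.155 to 0.221 for Irf2, -0.0258 to 0.0268 for Irf4, 0.111 to 0.231 for Irf5 and 0.145 to 0.2016 for Irf7. It reversed with 500 bp windows for Irf1 (0.00608) and with 2000 bp windows for Irf4 (0.0791) and Irf5 (-0.173).

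Other reversals were small and below the threshold, except the Irf5 gene-end sum with 2000 bp windows (0.245). With offsets that follow the mean count they were Irf2 distal (-0.0414), Irf3 ends (0.0757), Irf5 ends (0.0919) and the Irf4 start region (-0.00474). With a library left out they were, as ranges, the Irf3 ends (-0.0779 to 0.0199) and region (-0.0768 to 0.0194), the Irf5 ends (-0.0985 to 0.0661, with 0.00175 and 0.0409 between) and start regions (-0.0292 to 0.129 and -0.134 to 0.046), and the Irf9 ends (-0.0193 to 0.0497). With 500 bp windows the Irf9 ends were at -0.11. The cause was not tested. On simulated counts the region fit recovered 6% of log2 changes of 0.5. Few regions were changed in that simulation, and all were given the same spread. In the data 19.3% of regions were called, which makes the adjusted threshold easier to pass. The 6% is therefore not the share of such changes found here, which was not tested.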
